A study of Danio rerio with 24 samples.

Results

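The genes described here are mostly zebrafish genes for proteins of the spliceosomal small nuclear ribonucleoproteins (snRNPs) and their Sm and LSm rings. They were chosen by name, as every row whose gene name begins with snrp, with lsm and a digit, with sf3a or sf3b and a digit, or with prpf and a digit. This rule found 47 of the 32520 genes in the tables. By known role they comprised 8 Sm core genes, 7 genes of the LSm rings, 4 genes for U1 or U2 snRNP proteins, 3 SF3a genes, 6 SF3b genes, 13 prpf genes and 6 other LSm genes. The 6 other LSm genes met the name rule but lie outside the spliceosomal snRNPs and these rings. All 47 had a value above 0 in all 20 RNA libraries, and between 42 and 47 of them reached 10 TPM in any one library.

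Introns are removed by the spliceosome, which is assembled anew on each intron from the U1, U2, U4, U5 and U6 snRNPs, each a small nuclear RNA with its proteins. Most of these RNAs carry a ring of Sm proteins, whereas U6 carries a ring of related LSm proteins. A second LSm ring, in which Lsm1 takes the place of Lsm8, lies in the cytoplasm and takes part in the decapping and decay of mRNA. SF3a and SF3b are parts of the U2 snRNP that bind at the branch point of the intron, and the Prpf proteins act in the tri-snRNP and at the catalytic steps. The roles given below are those known for the yeast and human proteins. Early embryos live on RNA and protein stored in the egg, and primordial germ cells (PGCs), the founders of the germ line, keep part of that maternal store.

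RNA was measured in PGCs sorted by fluorescence from transgenic embryos whose PGCs carry a fluorescent protein, kept in Holtfreter's water. The stages were 75% epiboly, a time of gastrulation, and 1 dpf (days post-fertilization). In the first experiment, wild-type control PGCs were set beside PGCs of smad1-cKO embryos, in which smad1, a transcription factor gene of the BMP pathway, was knocked out in the germ line only, with 3 libraries per group and stage. The second experiment used wild-type embryos injected with a control morpholino (control-MO) or a smad1 morpholino (smad1-KD), with 2 libraries per group and stage. A morpholino acts in the whole embryo, so smad1 was not lowered in the germ line alone there. Full-length cDNA was amplified from the sorted cells before library preparation. Separate clutches are not named in the labels, so the p-values reflect library-to-library variation that may be only technical.

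Expression is given as TPM, the deposited unit of transcript abundance, which corrects for transcript length and has a fixed total in each library, so that the number of reads behind a value is unknown. Differences were tested with limma on log2(TPM + 1) over all genes with a mean of at least 1 TPM, and a gene is said to have risen or fallen where the adjusted p was under 0.05. The smad1 RNA itself stood at 140.0, 140.0 and 134.3 TPM in the 3 control libraries at 1 dpf and at 16.4, 12.5 and 11.7 TPM in the smad1-cKO libraries. At 75% epiboly it stood at 9.68, 13.5 and 17.9 TPM against 2.68, 1.11 and 5.09 TPM. In the morpholino experiment it was 9.96 and 9.80 TPM for control-MO against 2.60 and 4.23 TPM for smad1-KD at 75% epiboly, and 200.8 and 192.9 against 170.3 and 70.3 TPM at 1 dpf. All 10 germ cell markers checked, among them nanos3 and ddx4, were above 0 in every library. Their summed level ran from 4280 to 33610 TPM in the first experiment and from 826 to 5221 TPM in the morpholino experiment. The 11 blood genes checked, mostly haemoglobins, summed to between 10050 and 131500 TPM in the 4 morpholino libraries at 1 dpf and to at most 235.9 TPM in the other 16 libraries. In sorted but bulk samples, fewer cells of a type and less RNA per cell cannot be told apart. The stages also lie in separate tables, so a difference between stages and a difference between tables cannot be told apart.

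**Figure D1:**
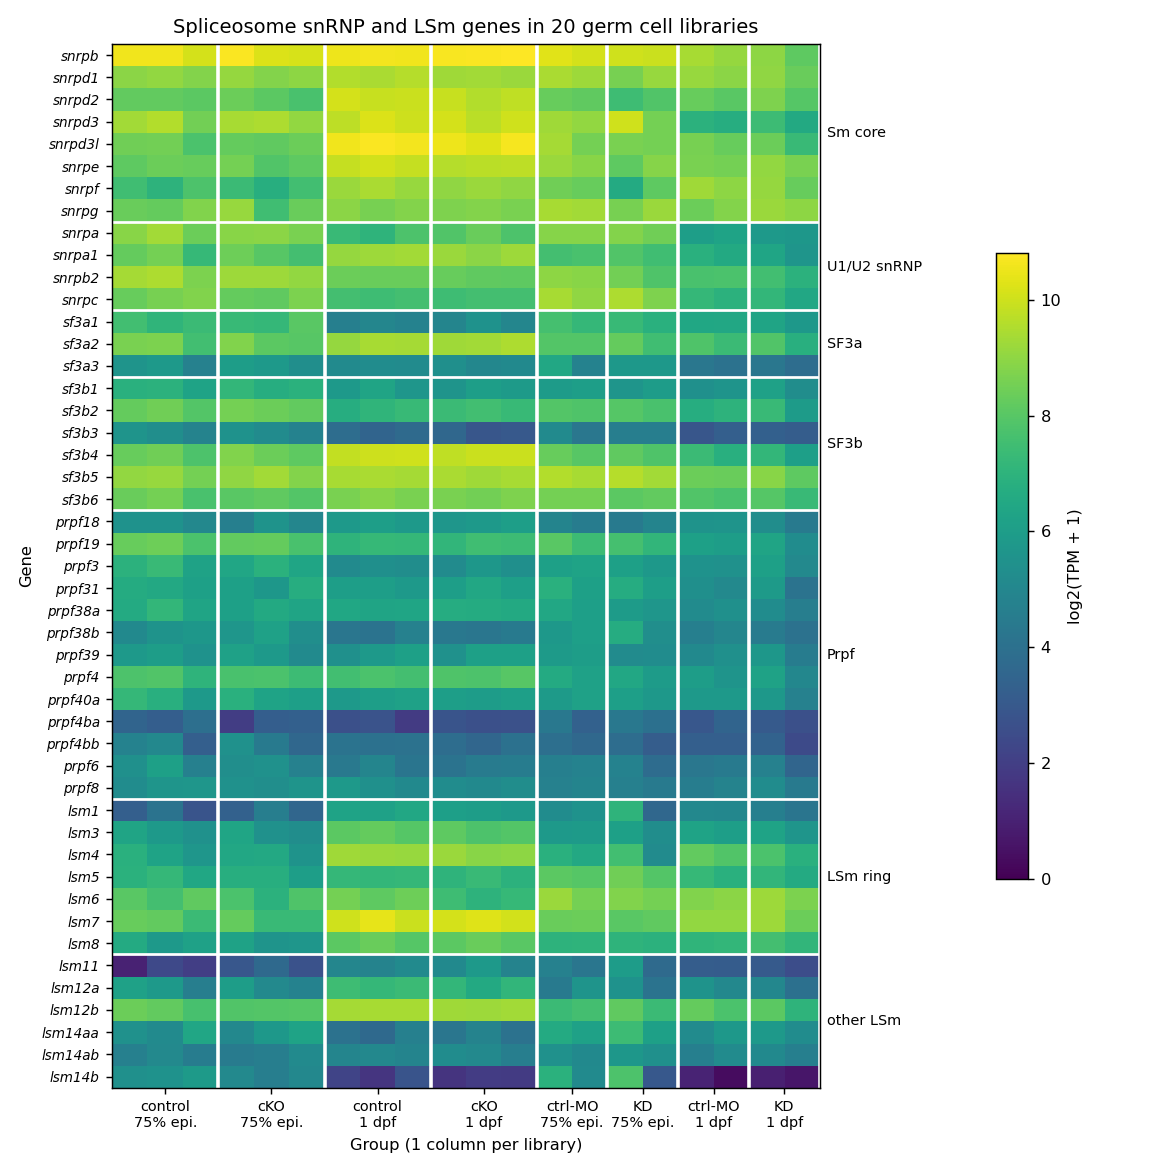
Levels of the 47 genes, grouped by role, in the 20 libraries, with colour giving log2(TPM + 1) and white lines separating groups of libraries. Most Sm core and LSm ring genes are brighter in the 6 libraries of the first experiment at 1 dpf than in its 6 libraries at 75% epiboly, and snrpa, sf3a1, sf3b3 and lsm14b are darker.

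In control PGCs of the first experiment, 6 of the 8 Sm core genes and 5 of the 7 LSm ring genes rose between 75% epiboly and 1 dpf, and 3 of the 13 prpf genes and 3 of the 4 genes for U1 or U2 snRNP proteins fell. The 47 genes together made up 1.09%, 1.14% and 0.818% of all TPM at 75% epiboly and 1.62%, 1.75% and 1.67% at 1 dpf, and the groups did not overlap. Of the 47 genes, 17 rose and 11 fell, beside 42.8% and 11.1% of the 16536 genes tested. The median difference of the 47 was 0.18 on the log2 scale, beside 0.99 over all genes tested. For 20 of the 47 every 1 dpf library lay above every 75% epiboly library, and for 13 every one lay below, beside 48.3% and 13.7% of all genes tested. The summed germ cell markers were 16950, 22310 and 4280 TPM at 75% epiboly and 19540, 15140 and 15340 TPM at 1 dpf. This sum is weighted to nanos3, at 10620, 15550 and 2270 and then 14570, 11590 and 11920 TPM. The marker ddx4 stood at 1806, 2466 and 393.1 and then at 562.5, 442.9 and 583.0 TPM. Summed markers of yolk and endoderm were 83.5, 204.7 and 1321 TPM and then 4.64, 5.64 and 15.4 TPM. The part of these cell contents in the stage differences was not tested.

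The scaling of the libraries bears on these counts. With TMM-style scaling, which assumes that most genes are level between libraries, 13 members rose and 20 fell, beside 31.9% and 18.5% of all genes. With quantile normalization 13 rose and 19 fell, beside 23.6% and 23.9% of all genes. All 11 genes that fell and 13 of the 17 that rose kept their call under both scalings, and snrpd1, snrpd3, sf3a2 and snrpa1 lost theirs.

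The Sm core, the ring of small proteins that closes around the U1, U2, U4 and U5 RNAs, had a summed level of 4072, 4227 and 3372 TPM at 75% epiboly and 7761, 8279 and 7863 TPM at 1 dpf. Of its 8 genes 6 rose and none fell, beside 42.8% and 11.1% of all genes, with a median difference of 1.27 beside 0.99. With TMM-style scaling 4 rose and 1 fell and the median was 0.54, beside 0.42 over all genes; with quantile normalization 4 rose and none fell and it was 0.67, beside 0.04. Among the 4 was snrpd2, which encodes SmD2 and stood at 300.3, 291.8 and 268.3 TPM at 75% epiboly and at 1104, 949 and 977 TPM at 1 dpf (log2 difference 1.81, SE 0.16, adjusted p 0.00016). Every 1 dpf library lay well above every earlier one. The gene snrpe, for SmE, went from 277.2, 328.2 and 311.9 TPM to 926 and 1075 and 933 TPM (1.67, SE 0.17, adjusted p 0.00023). The gene snrpf, for SmF, went from 178.8, 127.6 and 220.2 TPM to 577, 684 and 567 TPM (1.82, SE 0.25, adjusted p 0.00079). Both were again clear of overlap. The gene for SmD1, snrpd1, rose by less (0.61, SE 0.16, adjusted p 0.015), and its difference was -0.11 with TMM-style scaling.

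The 2 Sm core genes that were not called were snrpb and snrpg. The gene snrpb, for SmB, had the highest level of the 8 at the early stage and stood at 1518, 1517 and 1119 TPM at 75% epiboly and at 1498, 1581 and 1544 TPM at 1 dpf (0.17, SE 0.16, adjusted p 0.39). The libraries of the 2 stages overlapped. With TMM-style scaling snrpb was called lower (-0.56, adjusted p 0.0080), and with quantile normalization its difference was 0.01. The gene for SmG, snrpg, stood at 324.4, 304.0 and 440.0 TPM and then at 494.3, 382.0 and 443.1 TPM (0.31, SE 0.22, adjusted p 0.25), also with overlap.

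Zebrafish have a pair of genes for SmD3, snrpd3 and snrpd3l, and the balance between them turned over. The gene snrpd3l stood at 348.9, 366.2 and 212.5 TPM at 75% epiboly and at 1546, 1706 and 1598 TPM at 1 dpf, 5.23-fold higher by group means (2.42, SE 0.23, adjusted p 0.00019). The gene snrpd3 went from 644, 757 and 359 TPM to 860, 1212 and 1021 TPM (0.87, SE 0.29, adjusted p 0.036). As a share of the pair's TPM, snrpd3l made up 35.1%, 32.6% and 37.2% at 75% epiboly and 64.3%, 58.5% and 61.0% at 1 dpf. It was the lesser gene in each early library and the greater in each late one. The same shift in shares was seen in the smad1-cKO libraries, from 31.3%, 28.8% and 38.4% to 57.2%, 60.03% and 60.7%. In the control-MO libraries the share went from 51.8% and 40.8% to 75.8% and 74.6%, and in the smad1-KD libraries from 27.2% and 49.9% to 65.9% and 63.5%. In all 4 kinds of PGC, then, every 1 dpf library had a higher snrpd3l share than every 75% epiboly library of its kind. A factor common to all genes of a library cancels in such a share, which was not recomputed with quantile normalization. The genes are close copies and how reads were divided between them is not given in the sources used here.

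**Figure D2:**
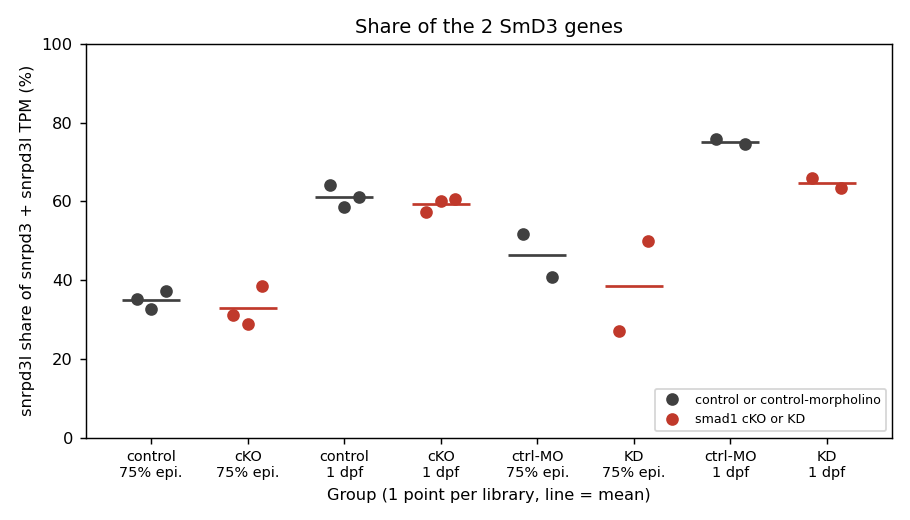
Share of snrpd3l in the summed TPM of snrpd3 and snrpd3l, in percent, for each group of libraries, with 1 point per library and a line at the group mean. Control libraries of the first experiment lie between 32.6% and 37.2% at 75% epiboly and between 58.5% and 64.3% at 1 dpf.

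The LSm ring genes had the highest median difference of the 7 role groups, 2.16, beside 0.99 over all genes. Of the 7, 5 rose and none fell, beside 42.8% and 11.1% of all genes. Their summed level was 999.6, 838.4 and 713.1 TPM at 75% epiboly and 2800 and 3066 and 2630 TPM at 1 dpf. The same 5 genes rose under both other scalings, beside 31.9% of all genes with TMM-style scaling and 23.6% with quantile normalization. The gene lsm4 went from 113.8, 77.2 and 49.6 TPM to 618, 580 and 568 TPM, 7.34-fold by group means (2.94, SE 0.31, adjusted p 0.00029). The gene lsm7 went from 315.7, 296.7 and 164.7 TPM to 1047, 1364 and 982 TPM (2.16, SE 0.28, adjusted p 0.00068). For both, the late libraries lay far above the early ones. The gene lsm3 rose likewise (2.22, SE 0.28, adjusted p 0.00062), from a mean of 59.6 ± 18.3 to 274.7 ± 26.3 TPM (SD, n = 3).

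The subunits that set the ring's place in the cell both rose. The gene lsm8, for the subunit of the nuclear U6 ring, stood at 96.4, 56.7 and 72.0 TPM at 75% epiboly and at 268.3, 324.8 and 250.1 TPM at 1 dpf (1.92, SE 0.27, adjusted p 0.00097). The gene lsm1, for the subunit of the cytoplasmic decay ring, stood at 8.79, 16.5 and 6.08 TPM and then at 75.5, 72.0 and 88.2 TPM, 7.52-fold by group means (2.89, SE 0.39, adjusted p 0.00081). The lsm1 level was lower than that of lsm8 in each of these libraries, at 0.0912, 0.290 and 0.0844 of it early and 0.281, 0.222 and 0.353 of it late. These ratios overlapped between stages.

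The other 2 ring genes, lsm5 and lsm6, were not called. The gene lsm5 stood at 120.3, 146.7 and 86.1 TPM and then at 145.7, 143.0 and 146.7 TPM (0.33, SE 0.27, adjusted p 0.32). The gene lsm6 (ENSDARG00000036995) stood at 265.1, 188.7 and 291.1 TPM at 75% epiboly and at 375.1, 279.9 and 343.7 TPM at 1 dpf (0.43, SE 0.24, adjusted p 0.16). For both, the stages overlapped, and both differences were below 0 under the other scalings (-0.39 and -0.39 for lsm5, -0.29 and -0.24 for lsm6). The share of lsm6 in the summed TPM of the 7 LSm ring genes was 26.5%, 22.5% and 40.8% at 75% epiboly and 13.4%, 9.13% and 13.1% at 1 dpf. That sum takes in both lsm1 and lsm8 and lacks Lsm2, so it is not the sum of either ring. The seventh subunit of the nuclear ring, Lsm2, falls outside the name rule. Its named row, smx5, was listed at 0 in 19 of the 20 libraries, and a row with no name in the tables, whose identifier the reference names as LSM2, stood at 42.7, 42.0 and 36.2 TPM and then at 121.7, 127.2 and 109.2 TPM.

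**Figure D3:**
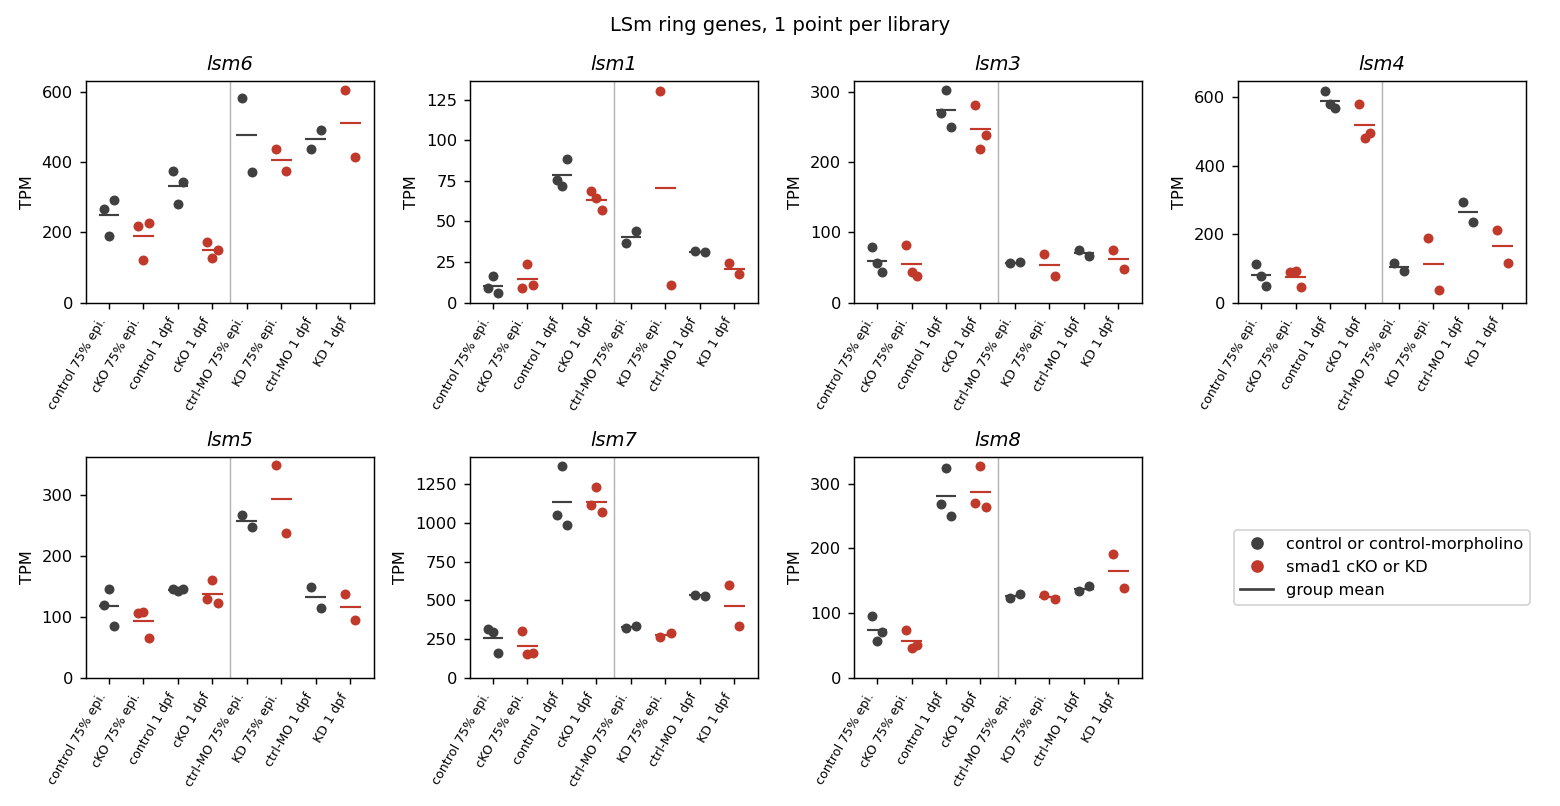
TPM of the 7 LSm ring genes in each library, by group, with a line at the group mean; the grey line divides the experiments and each panel has its own axis from 0. In the first experiment lsm1, lsm3, lsm4, lsm7 and lsm8 are higher at 1 dpf than at 75% epiboly in controls and in smad1-cKO libraries, and lsm6 at 1 dpf is lower in the 3 smad1-cKO libraries (127.5 to 171.9 TPM) than in the 3 controls (279.9 to 375.1 TPM).

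Of the 4 genes for proteins particular to the U1 and U2 snRNPs, 3 fell and 1 rose, beside 11.1% and 42.8% of all genes. The gene snrpa, for the A protein of the U1 snRNP, stood at 479, 632 and 333 TPM at 75% epiboly and at 161.9, 128.3 and 222.7 TPM at 1 dpf (-1.48, SE 0.31, adjusted p 0.0051). The gene snrpc, for U1-C, which helps to hold the 5′ splice site, went from 310.6, 382.3 and 437.8 TPM to 192.7, 175.8 and 190.7 TPM (-0.999, SE 0.21, adjusted p 0.0053). Neither gene overlapped between stages. The gene snrpb2, for the U2 protein B″, fell by 0.82 (SE 0.24, adjusted p 0.023), from a mean of 589 ± 162 to 324.3 ± 6.15 TPM (SD, n = 3). Its partner on the U2 RNA, the gene for the U2 protein A′, snrpa1, rose in the same libraries (1.19, SE 0.33, adjusted p 0.017), from 305.9, 371.2 and 151.8 TPM to 542, 606 and 633 TPM, without overlap but not called under the other scalings.

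The U2 branch-point complexes were split. In SF3a, sf3a1 stood at 184.0, 132.2 and 166.7 TPM and then at 24.7, 30.3 and 26.7 TPM, 5.91-fold lower by group means (-2.51, SE 0.27, adjusted p 0.00030). Its partner sf3a2 rose (1.00, SE 0.32, adjusted p 0.030), from 331.7 ± 127 to 629 ± 69.0 TPM (SD, n = 3), and sf3a3 was not called (-0.18, SE 0.35, adjusted p 0.68). The members of one complex thus lay on both sides of 0. In SF3b, sf3b4 went from 315.3, 356.4 and 223.2 TPM to 911 and 1029 and 1059 TPM (1.77, SE 0.22, adjusted p 0.00051). The genes sf3b2 (-1.18, SE 0.25, adjusted p 0.0056) and sf3b3 (-1.56, SE 0.34, adjusted p 0.0061) fell. The gene sf3b1, for the large scaffold that clasps the branch-point helix, had a difference of -0.76 (SE 0.31, adjusted p 0.071) and the small subunits sf3b5 and sf3b6 had differences of 0.50 and 0.51 (adjusted p 0.068 and 0.13). The last 2 were below 0 under both other scalings.

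None of the 13 prpf genes rose and 3 fell, beside 42.8% and 11.1% of all genes. Their median difference was -0.43, beside 0.99 over all genes. Under each of the other scalings 9 fell, beside 18.5% of all genes with TMM-style scaling and 23.9% with quantile normalization. The gene prpf19, for the ubiquitin ligase at the core of the Prp19 complex, stood at 312.3, 343.7 and 214.3 TPM and then at 129.6, 148.5 and 145.8 TPM (-1.01, SE 0.25, adjusted p 0.010). The gene prpf3, of the U4/U6 snRNP, fell by 1.53 (SE 0.34, adjusted p 0.0064), and prpf38b fell by 1.097 (SE 0.33, adjusted p 0.025). The other 10 prpf genes ranged from -1.10 (prpf4ba, adjusted p 0.0503, at 4.62 ± 1.66 TPM at 1 dpf, SD, n = 3) to 0.52 (prpf18). The gene for Prpf8, the U5 protein around the catalytic centre, stood at 37.2, 48.2 and 50.2 TPM and then at 54.8, 41.6 and 33.7 TPM (-0.07, SE 0.31, adjusted p 0.86), with overlap. The highest level of a prpf gene at 1 dpf was that of prpf4, of the U4/U6 snRNP, at 195.4 ± 17.3 TPM (SD, n = 3). At 75% epiboly prpf4 stood at 194.1 ± 56.4 TPM (SD, n = 3), below prpf19. The stage difference of prpf4 was 0.05 (adjusted p 0.89), and -0.67 and -0.70 under the other scalings, where it was called lower.

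The other LSm genes held the changes of greatest size in both directions. The gene lsm11, for a ring subunit of the U7 snRNP, which trims histone mRNAs, stood at 1.02, 4.27 and 3.07 TPM at 75% epiboly and at 29.8, 27.8 and 35.4 TPM at 1 dpf (3.18, SE 0.44, adjusted p 0.00084). The gene lsm14b, whose mouse ortholog is an oocyte mRNA-storage protein, stood at 41.8, 44.6 and 59.2 TPM and then at 3.67, 2.14 and 5.91 TPM, 12.4-fold lower by group means (-3.39, SE 0.40, adjusted p 0.00043). Each was separate between stages in all libraries. Its relative lsm14aa, of the same translational repressor family, also fell (-1.51, SE 0.44, adjusted p 0.021), while lsm14ab was not called (0.18, adjusted p 0.64). The close copies lsm12a (1.78, SE 0.42, adjusted p 0.0085) and lsm12b (1.28, SE 0.22, adjusted p 0.0024) rose, and lsm12b kept a share of 82.2% to 89.7% of the pair early and 79.0% to 82.4% late.

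**Figure D4:**
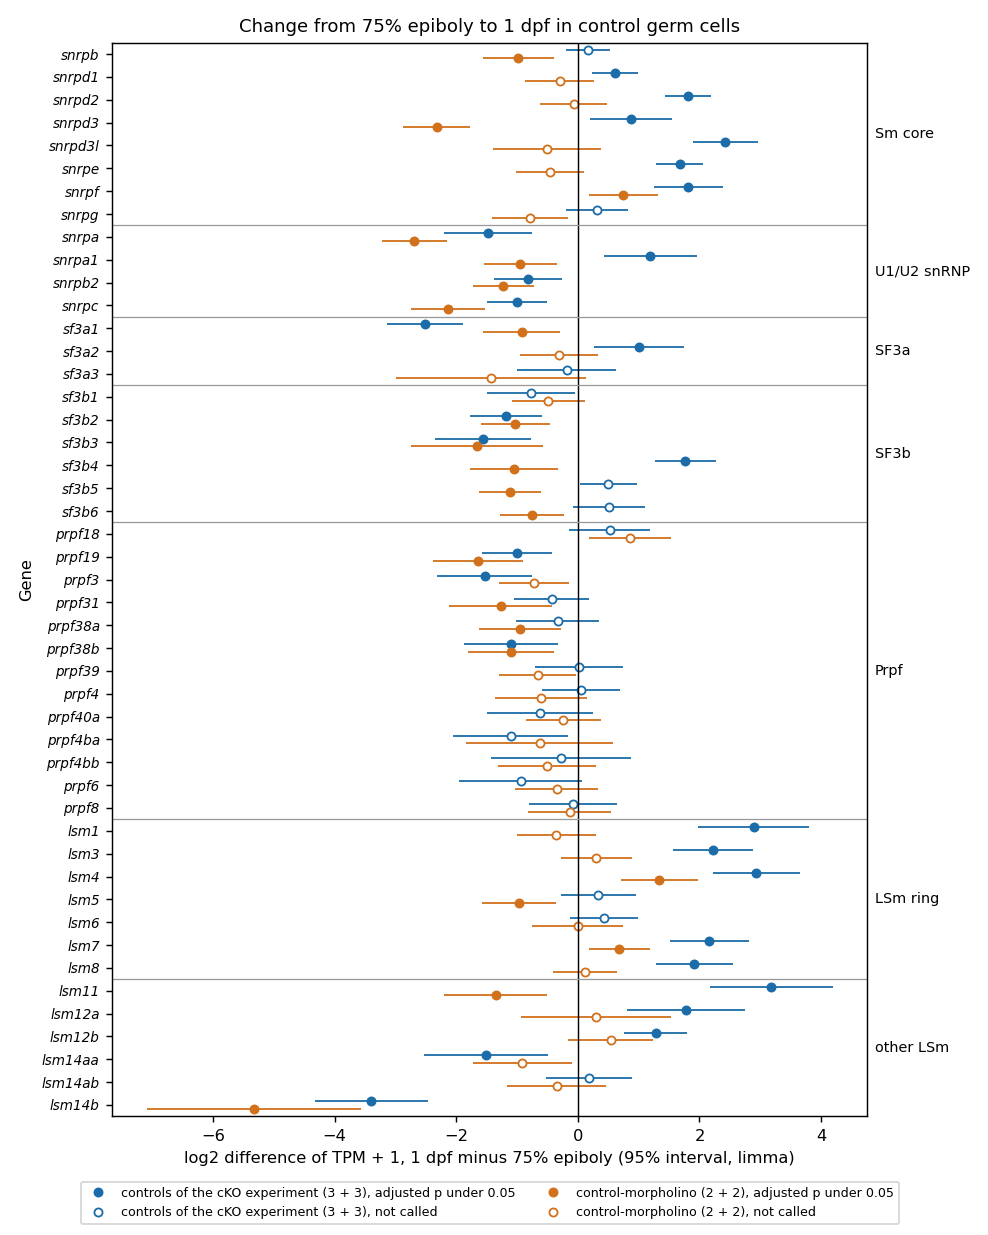
Difference between 1 dpf and 75% epiboly on the log2(TPM + 1) scale for each of the 47 genes, with 95% intervals from limma, in controls of the first experiment (blue, 3 and 3 libraries) and in control-MO libraries (orange, 2 and 2 libraries); filled points had an adjusted p under 0.05. In the blue points 17 genes lie to the right and 11 to the left as called changes; in the orange points 3 and 19.

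Control-MO PGCs gave a different count for the same stages. Here the 47 genes together went from 1.22% and 1.05% of all TPM at 75% epiboly to 0.770% and 0.707% at 1 dpf. Of the 47 genes 3 rose and 19 fell, beside 33.4% and 7.25% of the 16567 genes tested, with a median of -0.66 beside 0.86 over all genes tested. For 7 genes the 1 dpf libraries lay above both early ones and for 33 below, beside 58.0% and 18.5% of all genes tested. With TMM-style scaling 0 rose and 36 fell, beside 22.2% and 16.1% of all genes, and with quantile normalization 1 rose and 29 fell, beside 15.7% and 18.4%. With 2 libraries per stage these counts lean on each library. A fit without 1 of them leaves 1 library in a stage, so no counts are given for it. The median of the 47 was -0.82 to -0.58 in such fits. The summed blood markers in these libraries were 26.3 and 0.637 TPM at 75% epiboly and 39070 and 10050 TPM at 1 dpf, and the summed germ cell markers 847 and 1116 and then 5221 and 1516 TPM. The germ cell sum is weighted to nanos3, at 379.3 and 390.9 and then 4165 and 1060 TPM. The marker ddx4 stood at 105.8 and 216.8 and then at 166.0 and 148.1 TPM, so the sum does not stand for each marker. The part of these cell contents in the stage differences was not tested.

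The 3 genes that rose in control-MO PGCs had also risen in the first experiment. The gene lsm4 went from 114.5 and 92.1 TPM to 292.2 and 234.1 TPM (1.34, SE 0.24, adjusted p 0.016), lsm7 from 325.8 and 336.4 TPM to 536 and 529 TPM (0.68, SE 0.19, adjusted p 0.044) and snrpf from 353.7 and 310.9 TPM to 613 and 509 TPM (0.75, SE 0.22, adjusted p 0.048). All 3 calls were lost with TMM-style scaling, where lsm7 and snrpf had differences of -0.07 and -0.01. In addition, 9 genes fell in both experiments, namely lsm14b, prpf19, prpf38b, sf3a1, sf3b2, sf3b3, snrpa, snrpb2 and snrpc. The U1 genes were the clearest of these: snrpa went from 463.4 and 466.5 TPM to 66.7 and 76.1 TPM (-2.69, SE 0.20, adjusted p 0.0081) and snrpc from 667 and 523 TPM to 145.1 and 123.1 TPM (-2.14, SE 0.24, adjusted p 0.0084). The gene lsm14b went from 119.0 and 35.5 TPM to 1.13 and 0.268 TPM (-5.33, SE 0.68, adjusted p 0.0091). In each of these 3 genes no late library reached an early one.

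In control-MO PGCs 1 gene of the Sm core rose and 2 fell, and its summed level went from 5173 and 4338 TPM to 3389 and 3042 TPM. The gene snrpd3 went from 612 and 538 TPM to 122.8 and 106.2 TPM (-2.32, SE 0.21, adjusted p 0.0081) and snrpb from 1273 and 1120 TPM to 677 and 541 TPM (-0.98, SE 0.22, adjusted p 0.027). The copy of snrpd3, snrpd3l, stood at 657 and 371.6 TPM and then at 384.8 and 312.4 TPM (-0.51, SE 0.34, adjusted p 0.27), with overlap, so that the higher snrpd3l share at 1 dpf went here with a lower level of snrpd3. In the LSm ring 2 genes rose and 1, lsm5, fell (-0.97, SE 0.23, adjusted p 0.030), while lsm1 (-0.35, adjusted p 0.30), lsm8 (0.12, adjusted p 0.65) and lsm6 (-0.00, adjusted p 1.00) were not called. With TMM-style scaling 3 ring genes fell, among them lsm6 (-0.76, adjusted p 0.045), and lsm8 had a difference of -0.63. All 4 U1 and U2 protein genes, 5 of 6 SF3b genes, 1 of 3 SF3a genes and 4 of 13 prpf genes fell. Over all genes tested 33.4% rose and 7.25% fell, and with TMM-style scaling 22.2% rose and 16.1% fell.

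Across the 47 genes the stage differences of the 2 experiments, which share no library, had a Pearson correlation of 0.60 and a Spearman correlation of 0.55; genes are not independent replicates. The difference was above 0 in both for 8 genes and below 0 in both for 20, and for the other 19 it was above 0 in the first experiment and below 0 in control-MO PGCs. Of those, lsm11, sf3b4, snrpa1 and snrpd3 were called in both, in opposite directions. A test of the difference between the stage effects called 12 of the 47 lower and 1 higher in control-MO PGCs than in the first experiment's controls, beside 3.02% and 2.84% of the 16924 genes tested. The median over the 47 was -1.07, beside -0.14 over all genes tested. The genes called lower included 5 of the 8 Sm core genes (snrpb, snrpd2, snrpd3, snrpd3l and snrpe) and 3 of the 7 LSm ring genes (lsm1, lsm3 and lsm8), and the gene called higher was sf3a1. For lsm11 the difference between the effects was -4.53 (SE 0.63, adjusted p 0.0045), with lsm11 at 26.1 and 18.0 TPM and then 7.99 and 7.79 TPM in control-MO PGCs. The number called lower, among the 47 and over all genes, went down or up with the library left out. Some of these fits leave 1 library in a group, so no counts are given for them. The median over the 47 was -1.14 to -0.85 on leaving out 1 library. The sf3a1 call was lost without any one of 8 of the 10 libraries.

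Splicing factors outside the name rule were counted by complex, from lists of known members. In the first experiment's controls, 7 of 15 genes of the SMN complex and of snRNP assembly rose and none fell, among them gemin7 (2.93, SE 0.68, adjusted p 0.0081), smn1 (1.23, SE 0.30, adjusted p 0.011) and the export adaptor gene phax (1.59, SE 0.26, adjusted p 0.0018). Of 10 genes listed for mRNA decapping and decay, none rose and 4 fell, with patl2 (-2.83, SE 0.42, adjusted p 0.0012) and dcps (-2.22, SE 0.37, adjusted p 0.0019) first. Of 44 SR and hnRNP regulators 7 rose and 19 fell, of 33 genes of the Prp19 complex and catalytic steps 6 rose and 7 fell, of 26 further U1, U4/U6, U5 and U11/U12 genes 7 rose and 6 fell, and of 19 genes of U2 recruitment 4 rose and 3 fell, beside 42.8% and 11.1% of all genes. These counts turned with the scaling. With TMM-style scaling 4 rose and 5 fell for snRNP assembly, 0 and 7 for decapping, 1 and 28 for SR and hnRNP genes, 2 and 19 for the Prp19 list, 4 and 13 for the further U1 to U12 genes and 3 and 10 for U2 recruitment, beside 31.9% and 18.5% of all genes. The gene snrnp70, for the third U1-specific protein, fell with snrpa and snrpc in the first experiment (-1.73, SE 0.30, adjusted p 0.0024) and in control-MO PGCs (-1.49, SE 0.28, adjusted p 0.017). In control-MO PGCs the counts of genes that rose and fell were 3 and 2 of 15 for snRNP assembly, 1 and 2 of 10 for decapping, 4 and 26 of 45 for SR and hnRNP genes, 1 and 9 of 33, 1 and 7 of 26, and 0 and 5 of 19 for the others in the same order, beside 33.4% and 7.25% of all genes. With TMM-style scaling they were 1 and 4, 0 and 4, 2 and 34, 0 and 22, 0 and 16, and 0 and 11 in that order, beside 22.2% and 16.1% of all genes.

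With smad1 lost in the germ line, lsm6 had the largest difference of the 47 genes at 1 dpf, with all 3 smad1-cKO libraries below the controls. None of the 47 was called, beside 1 of 17573 genes (0.00569%, smad1 itself), which does not show that the 47 were level. In limma 4 of the 47 and 1122 of all genes had an unadjusted p under 0.05. The median difference of the 47 was -0.05, beside -0.01 over all genes, with 18 above 0 and 29 below. For 5 genes the smad1-cKO libraries lay above all controls and for 8 below, beside 5.66% and 5.78% of all genes.

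Control libraries held 375.1, 279.9 and 343.7 TPM of lsm6, and smad1-cKO libraries 171.9, 127.5 and 150.4 TPM. No smad1-cKO library reached a control, and the group means, 332.9 ± 48.5 and 149.95 ± 22.2 TPM (SD, n = 3), differed 2.22-fold. The difference was -1.15 (SE 0.16, 95% interval -1.51 to -0.78), with an unadjusted p of 5.6e-05, the 10th smallest of all genes tested, and an adjusted p of 0.098. Deviations of same-numbered libraries correlated at 0.27, 0.10 and 0.27 here, and no label marks pairs. That the numbers may mark pairs was read from these same data. With the replicate number as a block, lsm6 was called in limma (adjusted p 0.021, SE 0.11). How many of all genes were called in that fit is not given here. The differences within the numbered pairs were -1.12, -1.13 and -1.19, and in each pair lsm6 was the lowest of the 47 genes. Leaving out 1 library at a time gave differences of -1.26 to -1.03 and adjusted p-values of 0.057 to 0.45, without the block.

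Without the block no ring gene was called, and none but lsm6 had an unadjusted p under 0.05 in limma. The summed TPM of the other 6 ring genes was 2425, 2787 and 2286 in controls and 2443, 2480 and 2247 in smad1-cKO libraries, with overlap. The share of lsm6 in the sum of the listed ring genes was 13.4%, 9.13% and 13.1% in controls and 6.58%, 4.89% and 6.28% in smad1-cKO libraries. That sum takes in both lsm1 and lsm8 and lacks Lsm2. The nuclear subunit gene lsm8 stood at 268.3, 324.8 and 250.1 against 270.6, 327.4 and 264.0 TPM (0.03, SE 0.15, adjusted p 0.99). The decay subunit gene lsm1 stood at 75.5, 72.0 and 88.2 against 68.4, 64.2 and 56.8 TPM (-0.31, SE 0.17, adjusted p 0.85), which did not overlap but was not called.

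Markers of other tissues also varied in these libraries. The blood markers summed to 1.37, 6.71 and 2.91 TPM (controls) and to 235.9, 83.0 and 2.94 TPM (smad1-cKO), and the summed skin markers 3012 and 352.5 and 272.1 against 3900 and 4859 and 248.5 TPM. All 10 germ cell markers were present, with sums of 15140 to 19540 against 13400 to 20760 TPM. The part of other cells in the lsm6 difference was not tested.

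The other genes with an unadjusted p under 0.05 were of smaller size. The U1 snRNP gene snrpa measured 161.9, 128.3 and 222.7 TPM without and 233.3, 325.0 and 223.1 TPM with the knockout (0.62, SE 0.22, adjusted p 0.66), the gene with the greatest difference above 0. The highest control and the lowest smad1-cKO library were all but level. The Sm genes snrpd1 (-0.27, SE 0.10, adjusted p 0.70) and snrpe (-0.25, SE 0.10, adjusted p 0.75) had smad1-cKO libraries below all controls, at 616, 639 and 589 against 755, 690.0 and 781 TPM for snrpd1. The gene snrpb had them above all controls, at 1651, 1736 and 1797 against 1498, 1581 and 1544 TPM (0.16, SE 0.08, adjusted p 0.83). The 95% interval of snrpb, -0.02 to 0.35, was the narrowest of the 47.

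**Figure D5:**
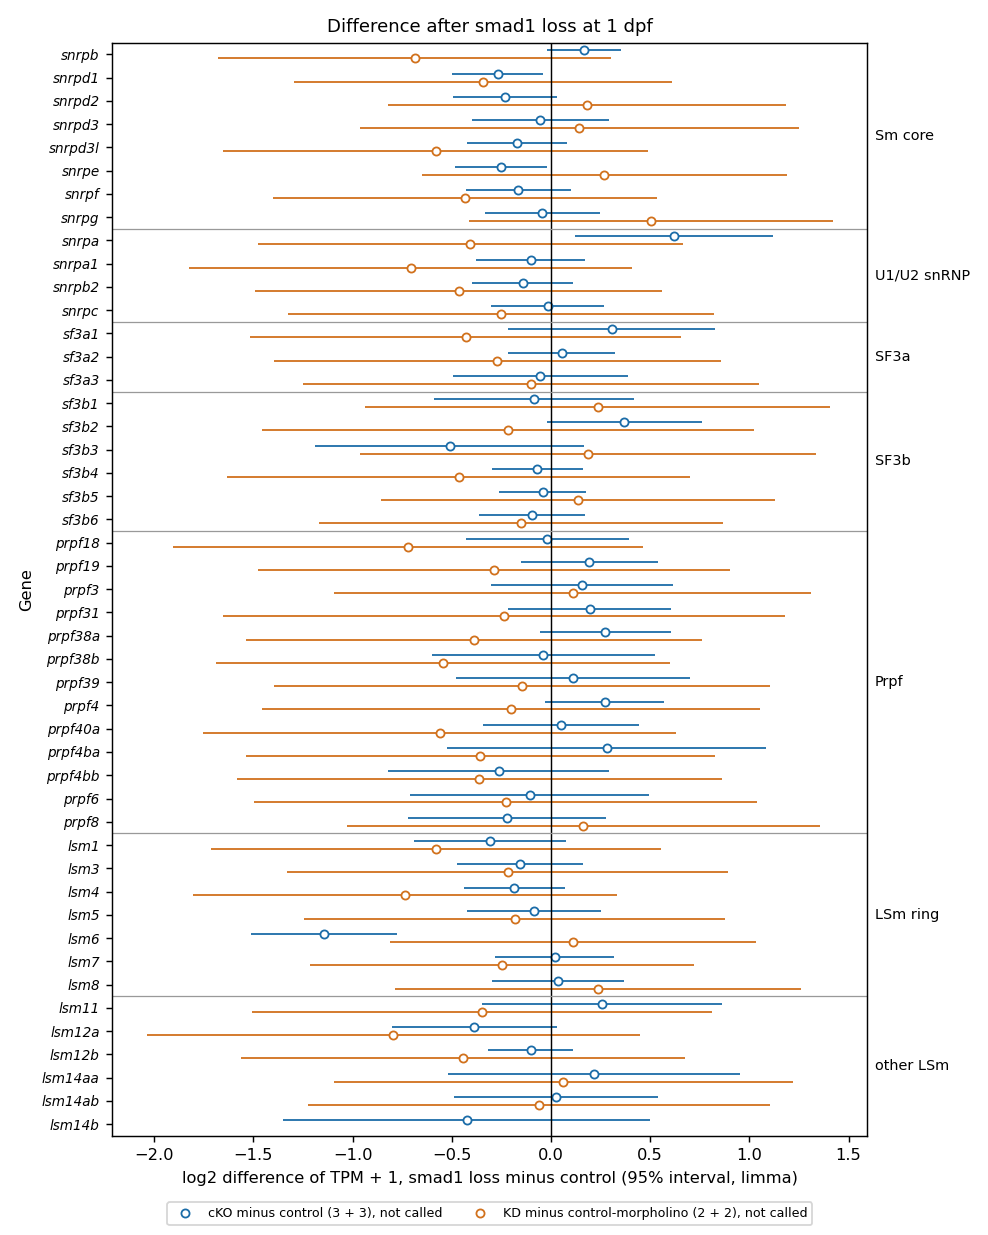
Difference between smad1 loss and control at 1 dpf on the log2(TPM + 1) scale with 95% intervals from limma, for smad1-cKO (blue, 3 and 3 libraries) and smad1-KD (orange, 2 and 2 libraries). No gene had an adjusted p under 0.05; lsm6 lies at -1.15 in smad1-cKO and at 0.11 in smad1-KD PGCs, and the orange intervals are wider than the blue ones.

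At 75% epiboly none of the 47 genes was called in smad1-cKO PGCs, as none of the 13006 genes tested was (0%). With 3 libraries per group that does not show that the 47 were level. In limma 0 of the 47 and 236 of all genes had an unadjusted p under 0.05. The median difference of the 47 was -0.07, as over all genes, and 1 gene, lsm11, was above and 1, lsm14b, below the controls in every library, beside 1.85% and 3.36% of all genes. The gene lsm11 stood at 1.02, 4.27 and 3.07 TPM without and 6.73, 11.97 and 5.68 TPM with the knockout (1.32, SE 0.67, adjusted p 1.00). The gene lsm14b stood at 41.8, 44.6 and 59.2 against 33.3, 23.4 and 32.0 TPM (-0.70, SE 0.42, adjusted p 1.00). The gene lsm6 stood at 265.1, 188.7 and 291.1 against 217.2, 121.9 and 227.7 TPM (-0.42, SE 0.35, 95% interval -1.18 to 0.34, adjusted p 1.00), and the groups overlapped. The differences within the numbered pairs were -0.29, -0.63 and -0.35. The change of the smad1-cKO effect on lsm6 between stages was -0.72 (SE 0.39, 95% interval -1.56 to 0.12, unadjusted p 0.086, adjusted p 1.00), and no member was called in that test, nor was any of the 16567 genes (0%).

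In smad1-KD PGCs no gene of the 47 was called either, which with 2 libraries per group does not show that they were level. At 75% epiboly 0 of the 12968 genes tested were called (0%), and 0 of the 47 and 164 of all genes had an unadjusted p under 0.05 in limma. The median of the 47 was -0.20, beside -0.06 over all genes tested. Of the 47, 14 lay below and none above the controls in both libraries, beside 14.9% and 7.37% of all genes. The smallest p was that of snrpf, at 353.7 and 310.9 TPM in control-MO and 97.2 and 283.0 TPM in smad1-KD libraries (-0.99, SE 0.52, adjusted p 1.00). The smad1-KD libraries themselves differed: lsm1 stood at 130.2 and 11.1 TPM and lsm14b at 221.3 and 6.98 TPM in them. These lay on both sides of the control-MO values of 36.7 and 44.1 TPM for lsm1 and 119.0 and 35.5 TPM for lsm14b.

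At 1 dpf 46 of the 47 genes passed the filter on low values in the morpholino experiment, all but lsm14b, and none was called, as none of the 17141 genes tested was (0%). In limma 0 of the 46 and 1697 of all genes had an unadjusted p under 0.05. The median of the 46 was -0.25 beside -0.38 over all genes, with 12 below and 2 above the controls in both libraries, beside 34.7% and 5.57% of all genes. That median turned with the processing: it was 0.22 with TMM-style scaling, 0.12 with quantile normalization, -0.70 without the first smad1-KD library and 0.11 without the second. The summed blood markers were 39070 and 10050 TPM in control-MO and 58260 and 131500 TPM in smad1-KD libraries, and their part was not tested. The gene lsm6 stood at 437.3 and 491.5 TPM in control-MO and at 606 and 413.5 TPM in smad1-KD libraries (0.11, SE 0.42, 95% interval -0.81 to 1.04, adjusted p 0.96), with overlap, and its difference was 0.59 with TMM-style scaling (adjusted p 0.52).

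The smad1-cKO effect on lsm6 at 1 dpf minus the smad1-KD effect was -1.26 (SE 0.33, 95% interval of the difference -1.99 to -0.52, unadjusted p 0.0029), which did not pass the adjusted threshold (adjusted p 0.18) and did so once the replicate number was blocked (adjusted p 0.036). That block also pairs the morpholino libraries, whose pairing could not be judged from 2 pairs. The count of all genes called with it is not given here. In this test 0 of the 47 genes were called higher or lower, beside 0.178% and 0.00557% of the 17965 genes. Without the first smad1-KD library, which leaves 1 library in that group, the median over all genes was 0.69, beside 0.38 in the full fit. Leaving out 1 library at a time gave a median of -0.16 to 0.66 over the 47. The number of all genes called also changed with the library left out. At 75% epiboly the corresponding difference for lsm6 was -0.22 (SE 0.53, adjusted p 1.00), with 0% of genes called. Over the 47 genes at 75% epiboly the smad1-cKO and smad1-KD differences had a Pearson correlation of 0.27, and over 46 genes at 1 dpf of -0.14, with Spearman correlations of 0.21 and -0.02. None of the lists of other splicing and decapping genes held a called gene in any comparison of smad1 loss with its control.

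Across the 12 libraries of the first experiment, the genes whose log2(TPM + 1) values were most like those of lsm6 were mast1b (Pearson correlation 0.81), rpl28 (0.74), BX649416.2 (0.74), CT027646.2 (0.73) and si:dkeyp-115e12.6 (0.73), of 16566 genes ranked. In the 8 libraries of the morpholino experiment their correlations with lsm6 were 0.51, 0.41, 0.30, -0.03 and 0.18. The members most like it were snrpg (0.44), prpf8 (0.41), snrpd1 (0.37), snrpf (0.23) and lsm12a (0.21). The libraries share stage and genotype, so these values are a description only.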

How the data were processed

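RNA from sorted zebrafish PGCs was measured in 20 libraries, and the 4 amplicon libraries of genomic DNA were not used here. The deposited values are TPM per gene in 4 tables, one for each experiment and stage. STAR 2.7.10b, StringTie 2.2.1 and the build GRCz11 (danRer11) are named in the submitters' processing notes, without their roles; whether counting used strand and how close copies were treated is not given in the sources used here. TPM keep no depth, and their fixed total means that a large rise of some genes lowers the others.

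Tables were joined by gene identifier and name. For each of 10 comparisons (6 between groups, 4 between effects) limma 3.58.1 in R 4.3.3 was fitted with an intensity trend to log2(TPM + 1) of the groups compared, over genes with a mean of at least 1 TPM, with Benjamini-Hochberg adjustment over all genes tested and a threshold of 0.05; fold changes of low genes are understated by the pseudocount. The fit was tested on simulated data with log2 changes of 1, 2 and 3 put into 67, 67 and 66 genes. It returned those sizes, but in comparisons of 2 with 2 libraries it called none of them. With 3 against 3 libraries it called 0%, 7.46% and 18.2% of them for smad1-cKO at 75% epiboly. For smad1-cKO at 1 dpf these were 13.4%, 74.6% and 81.8%, and for the stage change of the controls 2.99%, 17.9% and 51.5%. Far fewer genes were changed there than were called between stages, so these rates may not hold for the stage comparisons. The fits were repeated without the filter, with it raised to 5 TPM, with 0.1 as pseudocount, with TMM-style scaling or quantile normalization, without the trend, with replicate numbers blocked, and without each library in turn.

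The labels number the replicates alike across groups. The correlations of same-numbered deviations from the group means were 0.18, 0.20 and 0.42 for smad1-cKO at 75% epiboly and 0.27, 0.10 and 0.27 at 1 dpf. At both stages 6 of 6 libraries were nearest to their own number. That the numbers may mark pairs there was read from the data and not from the labels. All main fits were unpaired, and the replicate block was an alternative fit.

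The 47 members, their role groups and the lists of other splicing, decapping and marker genes were chosen with earlier results of these data known. Genes named in the text were lsm1, lsm6, lsm8 and the highest gene of each role group, the called members (the 8 of smallest p where more than 10 were called in a direction), the 3 of smallest p where under 4 were called, and up to 4 called genes per list. Other members, role sums, the SmD3 and LSm12 shares and the ratios within the ring were named after their values were seen. All 47 identifiers matched the reference gene names. No genome of the files' build was used, so no coordinates are given.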

Additional observations from a re-analysis of the deposited data

Results flagged for a closer look

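A test of the difference between stage effects singled out 13 genes, whose change from 75% epiboly to 1 dpf differed between control-MO PGCs and the controls of the first experiment in limma. Differences are control-MO minus control, on the log2(TPM + 1) scale, with adjusted p-values between 0.0027 and 0.036. Among the Sm core genes they were -1.15 for snrpb, -1.88 for snrpd2, -3.19 for snrpd3, -2.93 for snrpd3l and -2.13 for snrpe. Among the LSm genes they were -3.25 for lsm1, -1.92 for lsm3, -1.79 for lsm8 and -4.53 for lsm11. The U2 genes snrpa1 (-2.14), sf3b4 (-2.81) and sf3b5 (-1.62) were lower likewise, and sf3a1 was the one gene with a difference above 0 (1.59). The experiments differ in the morpholino injection, in the level of germ cell and blood markers given above and in the tables they were deposited in, and these cannot be told apart.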

How the results depend on the processing

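Depth is unknown, 2 or 3 libraries per group limit every comparison, and stage goes with table. In the stage comparison of the first experiment, the number of members called lower was 11 as reported, 20 with TMM-style scaling and 19 with quantile normalization, and the median was 0.18, then -0.53 and -0.39; the median of all genes was 0.99, then 0.42 and 0.04. Members above 0 numbered 27, then 16 and 18; among those that turned, snrpd1 was -0.11 and lsm6 -0.29 with TMM-style scaling, and lsm6 -0.24 with quantile normalization. Leaving out 1 library gave 8 to 16 members lower and 13 to 19 higher, beside 1283 to 2310 and 5472 to 7107 of all genes.

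In control-MO PGCs, the members called higher numbered 3 as reported, 0 with TMM-style scaling and 1 with quantile normalization, no filter, no intensity trend or the replicate block. Those called lower numbered 19, then 36 and 29 with the scalings and 9 with no intensity trend, and the median was -0.66, then -1.40 and -1.09. The counts over all genes with no filter, no intensity trend or the replicate block are not given here. Members above 0 numbered 8, then 2 and 6. With TMM-style scaling lsm7 (-0.0744), lsm3 (-0.45), snrpf (-0.00744), lsm12b (-0.22), lsm8 (-0.63) and lsm12a (-0.44) turned below 0, and lsm6 (-0.76) was called lower. Leaving out 1 library, which leaves 1 library in a stage, gave a median of -0.82 to -0.58 and -0.32 to 0.32 for lsm6.

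For the difference between stage effects, quantile normalization gave a median of -0.54, beside -0.09 over all genes. With no intensity trend 0 members were called higher and 7 lower, and the count over all genes is not given here. Leaving out 1 library gave a median of -1.14 to -0.85.

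For smad1-cKO at 1 dpf, the replicate block, whose pairs were read from these data, gave 1 member lower, lsm6. The count over all genes in that fit is not given here. For smad1-KD at 75% epiboly lsm6 was 0.0673 with quantile normalization, and leaving out 1 library gave -0.52 to 0.13 for lsm6, -0.23 to 1.015 for lsm14aa and -0.0933 to 0.70 for lsm12b. At 1 dpf the smad1-KD median was 0.22 and 0.12 with the scalings, and -0.70 to 0.11 on leaving out 1 library, with lsm6 at -0.16 to 0.39; it was 0.59 and 0.31 with the scalings. For smad1-cKO minus smad1-KD at 1 dpf the median was 0.27, then -0.23 and -0.0680 with the scalings. Over all genes it was 0.38, then -0.01 and -0.03. The block gave 1 member lower. Leaving out 1 library gave a median of -0.16 to 0.66. At 75% epiboly lsm6 was -0.55 to 0.10 in that difference on leaving out 1 library.

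The cause of these shifts was not tested. Replicate numbers did not pair between stages (correlations of -0.0149 to -0.0011, with 0 of 6 control libraries nearest to their own number) and could not be judged from 2 pairs in the morpholino tables (0.08 and 0.60). In control-MO PGCs the block gave 17 lower, 16 of them among the 19, and lsm7, snrpf, sf3b6, prpf38a and sf3a1 lost their calls. Beside the calls named here, the block changed no count of called members; it was not fitted for the difference between stage effects.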
